A study of Mus musculus with 12 samples.

Results

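The genes described here carry the interleukin 6 signal from the cell surface to STAT3 and switch it off again. They are the receptor chains Il6ra, Il6st, Osmr, Lifr and Il11ra1, the Janus kinases Jak1, Jak2 and Tyk2, and the inhibitors Socs3 and Pias3. These 10 genes were chosen by name, and each was read from the transcript cluster annotated to that gene alone, the one of highest mean where there were 2. Of the 10 genes, 9 had such a cluster, out of 19938 genes in all, and these 9 were among the 13977 genes that passed the filter on dim genes. Il11ra1 was not analysed here.

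The mice were 2 weeks old, and RNA of their whole livers was hybridised to 12 arrays, 3 (A, B and C) for each of 4 genotypes. Stat3Δhc Mdr2-/- mice carry the Stat3 deletion that the labels call Δhc together with a knockout of Mdr2, and Stat3Fl/FlMdr2-/- mice carry a floxed, undeleted Stat3 on the same knockout. Stat3Δhc and Stat3Fl/Fl mice are the same Stat3 genotypes without the knockout. Mdr2 is encoded by Abcb4, the transporter that puts phosphatidylcholine into bile, and its loss serves as a mouse model of sclerosing cholangitis. The labels name neither the Cre that deletes Stat3 nor the cells it acts in, and they leave unsaid whether the arrays of a genotype come from different animals. If they do not, the p-values measure only a technical spread. In whole liver, fewer cells of a type and less RNA per cell cannot be told apart.

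Cytokines of the interleukin 6 family bind a private receptor chain (IL-6 receptor, LIF receptor, oncostatin M receptor) that pairs with the shared chain gp130, the product of Il6st. JAK1, JAK2 and TYK2 sit on gp130, phosphorylate it and activate STAT3, which in hepatocytes drives the acute phase proteins. SOCS3 is itself induced by STAT3 and blocks gp130 and its kinases, and PIAS3 binds activated STAT3 in the nucleus.

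The promoters below are shown because Socs3 is a textbook target of STAT3 and because Il6st and Osmr were the 2 receptor genes that rose in both Mdr2 comparisons. Each is the RefSeq window from 250 bases before to 50 bases after the gene's start, in build GRCm38, written 5′ to 3′ on the strand of the gene. Socs3 lies at chr11:117969317-117969616 (minus strand), Il6st at chr13:112463820-112464119 (plus strand) and Osmr at chr15:6874264-6874563 (minus strand). The capitals mark the letters TTCNNNGAA, the general form of a STAT binding motif, which reads the same on both strands.
Socs3 promoter: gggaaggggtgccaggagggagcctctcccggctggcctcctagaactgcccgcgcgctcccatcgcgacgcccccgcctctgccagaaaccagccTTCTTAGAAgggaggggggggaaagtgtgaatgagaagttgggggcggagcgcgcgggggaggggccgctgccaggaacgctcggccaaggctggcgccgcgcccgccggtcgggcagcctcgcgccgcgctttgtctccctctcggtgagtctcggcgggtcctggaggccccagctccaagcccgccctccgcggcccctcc
Il6st promoter: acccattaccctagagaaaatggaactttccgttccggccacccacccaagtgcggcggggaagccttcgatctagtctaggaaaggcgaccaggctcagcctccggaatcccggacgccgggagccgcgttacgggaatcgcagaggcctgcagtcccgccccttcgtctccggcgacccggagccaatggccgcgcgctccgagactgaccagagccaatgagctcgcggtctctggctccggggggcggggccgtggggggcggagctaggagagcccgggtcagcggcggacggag
Osmr promoter: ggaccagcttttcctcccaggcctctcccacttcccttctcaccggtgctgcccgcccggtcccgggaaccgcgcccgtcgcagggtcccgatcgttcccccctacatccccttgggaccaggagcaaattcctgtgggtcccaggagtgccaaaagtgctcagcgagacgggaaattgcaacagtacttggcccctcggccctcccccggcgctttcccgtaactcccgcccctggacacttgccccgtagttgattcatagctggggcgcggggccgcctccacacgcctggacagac
The Socs3 window held 1 match, TTCTTAGAA, which starts 154 bases before the gene's start. The other 12 windows of the 10 genes held no match. In all, 1 of the 13 windows had a match, close to the share of 8.3% among all 32851 RefSeq windows (2726 windows). The stricter form TTCCNGGAA was in 1.15% of all windows and in none of these 13. A match is a description of letters, not a measured binding site.

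The labels were first checked on the targeted genes. Stat3 signal was 8.12, 7.80 and 7.82 on the log2 scale in Stat3Δhc Mdr2-/- liver, against 9.37, 9.27 and 9.54 in Stat3Fl/FlMdr2-/- liver. It was 7.71, 7.73 and 7.69 in Stat3Δhc liver, against 9.19, 9.32 and 9.19 in Stat3Fl/Fl liver, so that Stat3 followed the titles in all 12 arrays. In the source name field the genotypes of the Mdr2-/- arrays are exchanged, and with groups taken from it each sign of the Stat3 comparison on the knockout would turn. Abcb4 lay between 8.87 and 9.36 in the 6 Mdr2-/- arrays and between 10 and 10.28 in the other 6.

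The tissue label was borne out by 7 hepatocyte markers, whose mean log2 signal lay between 12.27 and 12.79 in the 12 arrays. The genotypes also differed in sex-linked and other transcripts. All 3 Stat3Fl/FlMdr2-/- arrays and array A of Stat3Δhc Mdr2-/- liver had high Xist and low Y-linked transcripts, and the other 8 arrays had the opposite pattern. The mean of 9 skeletal muscle genes lay between 5.2 and 5.63 in the Mdr2-/- arrays and between 8.64 and 9.46 in the others, and all 9 fell in both Mdr2 comparisons. The mean of 7 exocrine pancreas genes lay between 5.27 and 5.66 in the Mdr2-/- arrays and between 5.48 and 10.24 in the others. The array-wide medians lay between 6.01 and 6.14.

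Across the family, the shared chain Il6st and the oncostatin M receptor gene Osmr rose with Mdr2 loss in both Stat3 genotypes, Socs3 rose with Mdr2 loss in Stat3Δhc liver, and Lifr fell with Stat3 deletion on the Mdr2 knockout. In limma's test, 3 of the 9 genes rose and 0 fell with Mdr2 loss in Stat3Δhc liver, where 6.9% of all tested genes rose and 10.5% fell (17.4% in either direction). With Mdr2 loss in floxed liver 2 rose and 0 fell, where 7.12% of all genes rose and 5.65% fell (12.8% in either direction). With Stat3 deletion on the Mdr2 knockout 1 fell and 0 rose, where 3.9% of all genes fell and 1.87% rose (5.77% in either direction). With Stat3 deletion without the knockout 0 of the 9 were called, against 2.58% of all genes, and 2 of the 9 had an unadjusted p under 0.05 (16.4% of all genes). With array weights, 2 of the 9 were called there, in a fit that called 2955 of all 13977 genes instead of 361. The arrays of the groups compared did not overlap for 5 of the 9 genes with Mdr2 loss in Stat3Δhc liver (37.2% of all genes) and for 3 in floxed liver (33.3%). They did not overlap for 2 with Stat3 deletion on the knockout (28.6%) and for 2 without it (25.1%). The median log2 change of the 9 genes was 0.15 for Mdr2 loss in Stat3Δhc liver and 0.14 in floxed liver, where the medians of all tested genes were -0.02 and 0. It was -0.04 for Stat3 deletion both on and without the knockout, where the medians of all genes were -0.03 and -0.01. The comparisons share arrays, each Mdr2 comparison with both Stat3 comparisons, so their calls are not independent of each other.

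**Figure D1:**
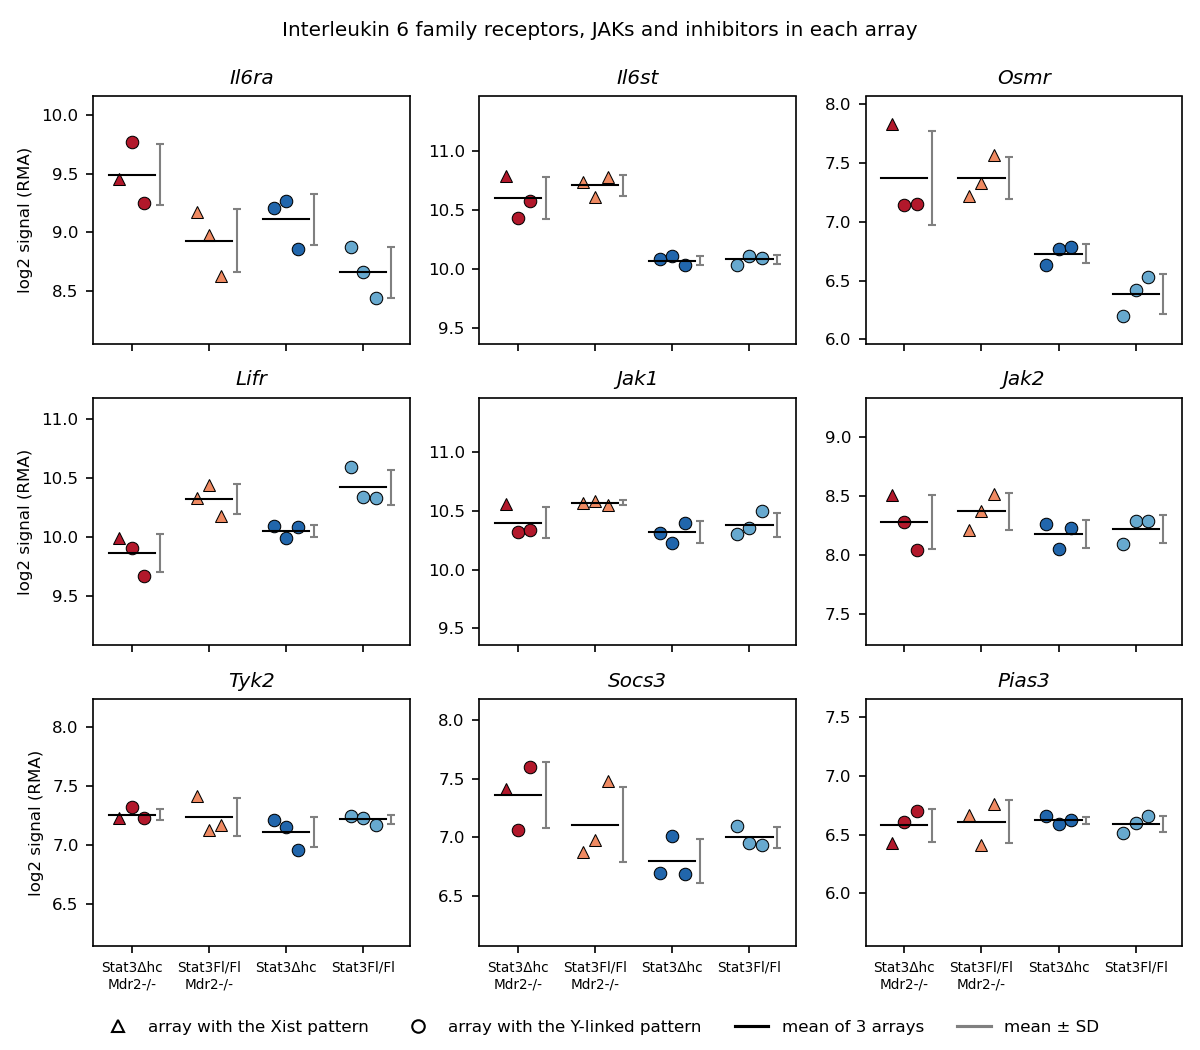
Log2 signal (RMA) of the 9 measured genes in each of 12 arrays, by genotype; triangles are arrays with the Xist pattern, circles those with the Y-linked pattern, black bars the mean of 3 arrays and grey bars the mean ± SD. Each panel spans the same log2 range; Il6st and Osmr lie higher in all 6 Mdr2-/- arrays than in the other 6, and Lifr lies lower in all 6 Stat3Δhc arrays than in the 6 floxed arrays.

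Il6st, the gp130 chain used by every receptor of the family, had log2 signals of 10.79, 10.43 and 10.58 in Stat3Δhc Mdr2-/- liver, against 10.08, 10.11 and 10.03 in Stat3Δhc liver. In floxed liver it had 10.74, 10.61 and 10.78 with the Mdr2 knockout, against 10.03, 10.11 and 10.09 without it. Each Mdr2-/- array lay above each array without the knockout, and the spread within the groups without the knockout was small (SD 0.04 in both, n = 3). Il6st rose 1.44-fold with Mdr2 loss in Stat3Δhc liver (log2 change 0.53, SE 0.09, limma adjusted p = 0.00281) and 1.55-fold in floxed liver (0.63, SE 0.09, adjusted p = 0.00105). Stat3 deletion changed Il6st by a log2 value of -0.11 on the knockout (95% interval -0.32 to 0.09) and by 0.00 without it (-0.21 to 0.20), and neither passed.

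Osmr, whose product pairs with gp130 to bind oncostatin M, had log2 signals of 7.83, 7.14 and 7.15 in Stat3Δhc Mdr2-/- liver, against 6.63, 6.77 and 6.79 in Stat3Δhc liver. In floxed liver the values were 7.22, 7.33 and 7.57 with the knockout, against 6.2, 6.42 and 6.53 without it. The Mdr2-/- arrays again lay above the others in both Stat3 genotypes, and array A of Stat3Δhc Mdr2-/- liver was the highest of the 12. Osmr rose 1.56-fold with Mdr2 loss in Stat3Δhc liver (log2 change 0.64, SE 0.17, limma adjusted p = 0.0206) and 1.98-fold in floxed liver (0.99, SE 0.17, adjusted p = 0.00233). The change in Stat3Δhc liver lost its call without array A (0.59, adjusted p = 0.0726) or C (0.67, adjusted p = 0.0531) of Stat3Δhc liver, and in the fit of only the groups compared (0.64, adjusted p = 0.0568). Its level without the knockout was 6.73 ± 0.08 in Stat3Δhc liver and 6.39 ± 0.17 in Stat3Fl/Fl liver (SD, n = 3 each), groups that did not overlap and a difference that did not pass the test (log2 change 0.34, adjusted p = 0.33). The difference between the Mdr2 changes in Stat3Δhc and floxed liver was -0.34 (95% interval -0.85 to 0.17, adjusted p = 0.431).

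The pattern of sex-linked transcripts moved with the Mdr2 comparisons, since all 6 arrays without the knockout had the Y-linked pattern. In floxed liver the knockout arrays all had the Xist pattern, so there the comparison within a pattern could not be made. With the pattern as a covariate, whose size rests on array A against arrays B and C of Stat3Δhc Mdr2-/- liver, the log2 change in floxed liver was 0.34 for Il6st (adjusted p = 0.4) and 0.30 for Osmr (adjusted p = 0.614). Stat3Δhc liver allowed a comparison within the Y-linked pattern, arrays B and C of Stat3Δhc Mdr2-/- liver against the 3 Stat3Δhc arrays. There Il6st was higher by 0.43 (adjusted p = 0.00942) and Osmr by 0.41 (adjusted p = 0.0386), in the fit with the covariate. Skeletal muscle genes fell with Mdr2 loss (median log2 change -3.23 in Stat3Δhc liver and -3.72 in floxed liver), and their part in these results was not tested. Of 7 tested macrophage markers, 1 rose in Stat3Δhc liver and 1 fell in floxed liver with Mdr2 loss, and of 7 stellate cell markers 2 rose and 4 fell in Stat3Δhc liver and 1 fell in floxed liver. Both tested erythroid markers fell with Mdr2 loss (median -0.70 in Stat3Δhc liver and -0.99 in floxed liver). Of 4 lymphocyte markers 2 rose in Stat3Δhc liver, and of 6 liver endothelium markers 2 fell in Stat3Δhc liver and 1 rose in floxed liver. The part of these cells in the Il6st and Osmr values was not tested. Over all genes 6.9% rose and 10.5% fell with Mdr2 loss in Stat3Δhc liver, and 7.12% rose and 5.65% fell in floxed liver.

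Lifr, the receptor chain for leukaemia inhibitory factor, had log2 signals of 9.99, 9.90 and 9.67 in Stat3Δhc Mdr2-/- liver, against 10.33, 10.44 and 10.18 in Stat3Fl/FlMdr2-/- liver. Without the knockout it had 10.09, 9.99 and 10.08 in Stat3Δhc liver, against 10.59, 10.34 and 10.33 in Stat3Fl/Fl liver. In both Mdr2 genotypes the 3 Stat3Δhc arrays lay below the 3 floxed arrays. Lifr fell 1.38-fold with Stat3 deletion on the knockout (log2 change -0.46, SE 0.11, limma adjusted p = 0.027). Without the knockout the change was -0.37 (SE 0.11, adjusted p = 0.0894), and the difference between these changes was -0.09 (95% interval -0.42 to 0.23, adjusted p = 0.744). The call on the knockout was lost without array A (-0.45, adjusted p = 0.061) or B (-0.40, adjusted p = 0.102) of Stat3Fl/FlMdr2-/- liver, or B (-0.48, adjusted p = 0.0627) or C (-0.37, adjusted p = 0.079) of Stat3Δhc Mdr2-/- liver. With the sex-linked pattern as a covariate the change was -0.33 (adjusted p = 0.502), and in the fit of only the groups compared the adjusted p was 0.0867 (-0.46). Of the marker lists, 2 of 7 macrophage markers (median log2 change -0.36) and 3 of 7 stellate cell markers (0.01) fell in this comparison and 1 of 7 hepatocyte markers rose (0.04), while the median of 6 liver endothelium markers was -0.31. The mean of the stellate cell markers lay between 8.13 and 8.27 in Stat3Δhc Mdr2-/- liver and between 8.5 and 8.53 in Stat3Fl/FlMdr2-/- liver. Their part in the Lifr values was not tested. Over all genes 3.9% fell and 1.87% rose with Stat3 deletion on the knockout. Averaged over both Mdr2 genotypes, a contrast added after the data were seen, Lifr fell 1.33-fold (-0.41, SE 0.08, adjusted p = 0.00497), where 10.2% of all genes were called. Without the covariate this held in each fit that left out 1 array, and with it the adjusted p was 0.0548 (-0.35).

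Il6ra encodes the ligand-binding chain of the interleukin 6 receptor. Its log2 signals were 9.45, 9.77 and 9.25 in Stat3Δhc Mdr2-/- liver, against 9.17, 8.98 and 8.63 in Stat3Fl/FlMdr2-/- liver. Without the knockout they were 9.21, 9.27 and 8.86 in Stat3Δhc liver, against 8.88, 8.66 and 8.44 in Stat3Fl/Fl liver. The groups did not overlap on the knockout, and they overlapped without it. The log2 change was 0.56 on the knockout (SE 0.17, limma adjusted p = 0.069) and 0.45 without it (SE 0.17, adjusted p = 0.195), and neither passed. On the knockout it passed in 3 of 10 other settings: cyclic loess (0.66, adjusted p = 0.0436), array weights (0.79, adjusted p = 0.00602) and a replicate block (0.56, adjusted p = 0.021). It passed in 0 of 12 fits that left out 1 array. Over all these fits its adjusted p on the knockout reached 0.553, and the log2 change lay between 0.41 and 0.79. In the contrast averaged over both Mdr2 genotypes Il6ra rose 1.42-fold (0.51, SE 0.12, adjusted p = 0.0192), opposite in sign to Lifr. That call was lost without array A (0.48, adjusted p = 0.0511) or B (0.47, adjusted p = 0.0517) of Stat3Δhc or C (0.45, adjusted p = 0.0598) of Stat3Fl/Fl liver, and with the covariate (0.49, adjusted p = 0.106). Mdr2 loss gave 0.38 in Stat3Δhc liver (adjusted p = 0.137) and 0.27 in floxed liver (adjusted p = 0.351).

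The 4 receptor chains thus had different orders of mean log2 signal over the genotypes. For Il6st the order was Stat3Fl/FlMdr2-/- (10.71), Stat3Δhc Mdr2-/- (10.6), Stat3Fl/Fl (10.08) and Stat3Δhc (10.07), and only the step between the knockout and the other genotypes had no overlap. For Osmr the means of the Mdr2-/- genotypes were both 7.37, above Stat3Δhc (6.73) and Stat3Fl/Fl (6.39). For Lifr the order was Stat3Fl/Fl (10.42), Stat3Fl/FlMdr2-/- (10.32), Stat3Δhc (10.05) and Stat3Δhc Mdr2-/- (9.86), where the floxed genotypes overlapped and the deleted genotypes met at 9.99. For Il6ra it was Stat3Δhc Mdr2-/- (9.49), Stat3Δhc (9.11), Stat3Fl/FlMdr2-/- (8.93) and Stat3Fl/Fl (8.66), and each neighbouring pair overlapped. Osmr and Lifr are adjacent protein-coding genes on mouse chromosome 15 in RefSeq, between Rictor and Egflam. Their neighbour Rictor, a subunit of the mTORC2 kinase complex, had log2 changes of 0.14 (adjusted p = 0.326) with Mdr2 loss in Stat3Δhc liver and 0.28 (adjusted p = 0.09) in floxed liver. Averaged over both Stat3 genotypes Rictor rose by 0.21 (adjusted p = 0.0467), and Osmr by 0.81 (adjusted p = 0.000323; 0.36 with the sex-linked covariate, adjusted p = 0.132). Egflam did not pass the filter on dim genes.

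**Figure D2:**
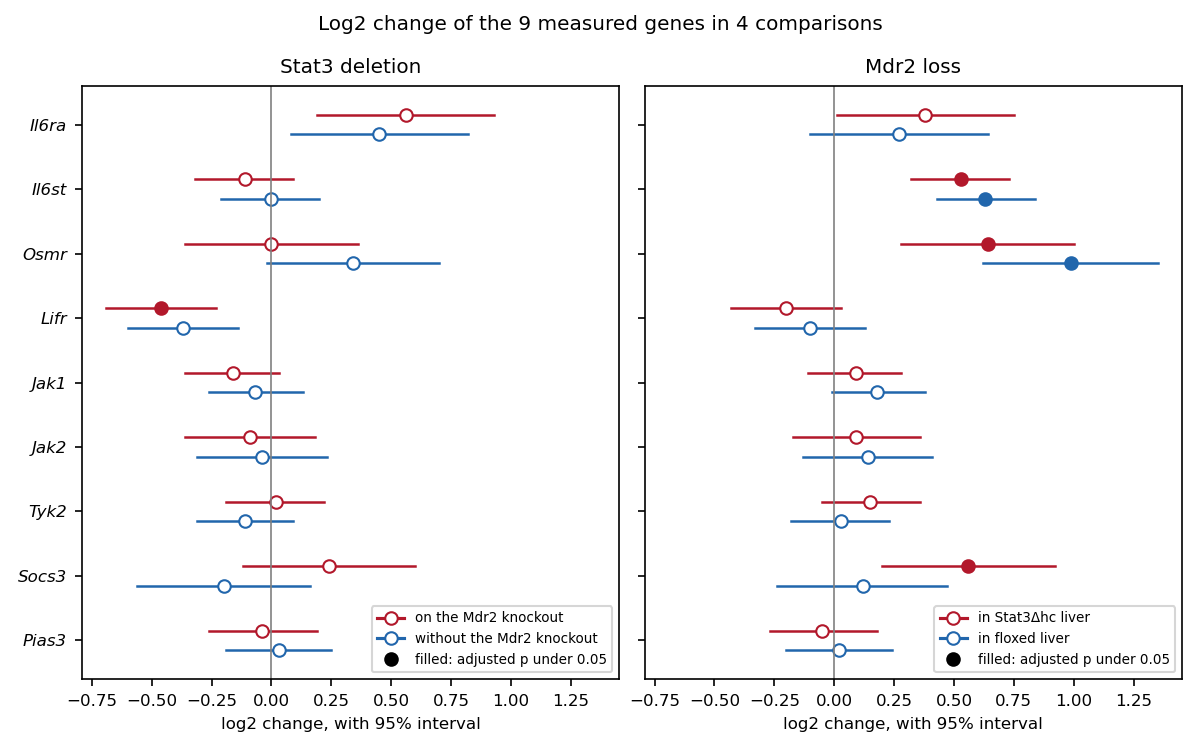
Log2 change with its 95% interval for the 9 genes, with Stat3 deletion at left (on and without the Mdr2 knockout) and Mdr2 loss at right (in Stat3Δhc and in floxed liver); filled points have an adjusted p under 0.05 over all tested genes. Il6st and Osmr are filled in both Mdr2 comparisons, Socs3 in Stat3Δhc liver, and Lifr with Stat3 deletion on the knockout.

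The kinases that sit on gp130 were the steadiest of the 9 genes, together with Pias3. Jak1, which carries most of the signal from gp130, ranged from 10.23 to 10.58 on the log2 scale over the 12 arrays, Jak2 from 8.04 to 8.52 and Tyk2 from 6.96 to 7.42. Pias3 ranged from 6.41 to 6.76. For comparison with their own ranges, Osmr spanned 1.63 log2 units, Il6ra 1.33, Lifr 0.92, Socs3 0.91 and Il6st 0.76, and Jak1 and Pias3 each spanned 0.35. Of these 4 genes, limma called 0 in the 5 planned comparisons, 0 had an unadjusted p under 0.05 there, and 0 were called there under the other settings. The share of all genes called lay between 0.0715% and 17.4% in these comparisons, so 0 of 4 is near what the background gives. The largest change among the kinases was that of Jak1 with Mdr2 loss in floxed liver, at 0.18 (95% interval -0.01 to 0.38, unadjusted p = 0.0622). There Jak1 was 10.57, 10.58 and 10.55 in Stat3Fl/FlMdr2-/- liver, against 10.30, 10.35 and 10.50 in Stat3Fl/Fl liver, with no overlap. With Stat3 deletion on the knockout Jak1 changed by -0.16 (-0.36 to 0.03), Jak2 by -0.09 (-0.36 to 0.18) and Tyk2 by 0.02 (-0.19 to 0.22). The intervals for Pias3 stayed between -0.27 and 0.25 in the 4 comparisons between genotypes.

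Socs3, the feedback inhibitor of gp130, had log2 signals of 7.41, 7.06 and 7.6 in Stat3Δhc Mdr2-/- liver, against 6.70, 7.01 and 6.69 in Stat3Δhc liver. In floxed liver it had 6.88, 6.98 and 7.48 with the knockout, against 7.10, 6.95 and 6.94 without it. The groups did not overlap in Stat3Δhc liver, and they overlapped in floxed liver. Socs3 rose 1.47-fold with Mdr2 loss in Stat3Δhc liver (log2 change 0.56, SE 0.17, limma adjusted p = 0.0367). In floxed liver the change was 0.12 (SE 0.17, adjusted p = 0.712). The difference between these changes was 0.44 (95% interval -0.07 to 0.95) with an adjusted p of 0.338, so that a different response in the deleted liver was not shown. The call was lost without array A (0.51, adjusted p = 0.114) or C (0.50, adjusted p = 0.131) of Stat3Δhc liver, or A (0.53, adjusted p = 0.0707) or C (0.44, adjusted p = 0.138) of Stat3Δhc Mdr2-/- liver. It was also lost with the sex-linked covariate (0.53, adjusted p = 0.0706), in the fit of only the groups compared (0.56, adjusted p = 0.056) and with the array letter as a replicate block (0.56, adjusted p = 0.0532).

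Stat3 deletion did not lower Socs3 past the threshold in either Mdr2 genotype. The log2 change was 0.24 on the knockout (95% interval -0.12 to 0.60, limma adjusted p = 0.346) and -0.20 without it (-0.56 to 0.16, adjusted p = 0.618), while the log2 changes of Stat3 itself were -1.48 and -1.52. Socs3 has a second cluster on the array, which lay between 5.65 and 6.14 over the 12 arrays, and the values above are those of the brighter one. The dimmer cluster averaged 6.13 in Stat3Δhc Mdr2-/- liver, against 5.85 in Stat3Δhc liver, a difference of 0.28. With the mean of both clusters the change of Socs3 with Mdr2 loss in Stat3Δhc liver was 0.42 (adjusted p = 0.0251). Among the family's 9 genes, the test of whether the Stat3 change depended on the Mdr2 genotype called 0 in limma, and 0 had an unadjusted p under 0.05, against 0.0715% and 16.9% of all genes. No array left out and no other setting gave a call there.

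Other inhibitors of JAK and STAT signalling were followed as a list of 20 genes, of which 19 were tested. With Stat3 deletion 3 of them fell on the knockout and 1 without it, and 0 rose. Over all genes 3.9% fell and 1.87% rose on the knockout, and 2.58% were called in either direction without it. With Mdr2 loss limma called 0 in either Stat3 genotype, where 17.4% of all genes were called in Stat3Δhc liver and 12.8% in floxed liver. Socs2, the growth hormone-induced member of the SOCS family, had log2 signals of 7.12, 7.41 and 7.01 in Stat3Δhc Mdr2-/- liver, against 8.36, 9.77 and 8.35 in Stat3Fl/FlMdr2-/- liver. Without the knockout it had 6.53, 6.32 and 6.42 in Stat3Δhc liver, against 8.13, 9.14 and 8.57 in Stat3Fl/Fl liver. Each deleted array lay below each floxed array, a pattern that Socs3 did not share. Socs2 fell 3.12-fold on the knockout (log2 change -1.64, limma adjusted p = 0.0139) and 4.58-fold without it (-2.19, adjusted p = 0.00492). With the sex-linked covariate the call on the knockout was lost (-1.7, adjusted p = 0.184). The other 2 falls on the knockout were Pias1 (-0.46, adjusted p = 0.0459) and Socs6 (-0.33, adjusted p = 0.0203), and both lost their calls when 1 array was left out. This held for Pias1 without array A of Stat3Δhc, B or C of Stat3Fl/Fl, A, B or C of Stat3Fl/FlMdr2-/-, or B or C of Stat3Δhc Mdr2-/- liver (adjusted p between 0.0551 and 0.123). It held for Socs6 without array B or C of Stat3Fl/FlMdr2-/- or B of Stat3Δhc Mdr2-/- liver (adjusted p between 0.0543 and 0.0751). Both calls were also lost with the sex-linked covariate, in the fit of only the groups compared and under other settings (adjusted p up to 0.635 for Pias1 and 0.305 for Socs6). The median log2 change of the 19 genes was -0.21 on the knockout and -0.04 without it, where the medians of all genes were -0.03 and -0.01.

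The ligands of the family were mostly dim. Of 10 ligand genes, 8 had a cluster and 4 were tested. Il6 itself lay between 2.53 and 2.86 in all 12 arrays, below the filter, so that no change in it could be measured. Ctf1, which encodes cardiotrophin 1, fell with Mdr2 loss in Stat3Δhc liver (log2 change -0.41, limma adjusted p = 0.00685), and Clcf1, a ligand of the CNTF receptor, rose there (0.55, adjusted p = 0.0213). The Clcf1 values were 6.37, 6.31 and 6.77 in Stat3Δhc Mdr2-/- liver, against 5.95, 6.17 and 5.68 in Stat3Δhc liver. Its call was lost without array A (0.56, adjusted p = 0.0567) or C (0.42, adjusted p = 0.099) of Stat3Δhc or C (0.41, adjusted p = 0.0797) of Stat3Δhc Mdr2-/- liver, and in the fit of only the groups compared (0.55, adjusted p = 0.0652). In the other 4 planned comparisons 0 of the 4 ligands were called. Over all genes 17.4% were called with Mdr2 loss in Stat3Δhc liver, and between 0.0715% and 12.8% in the other 4 comparisons.

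Of 9 other gp130-type receptor genes 5 were tested, and 1 was called, with Mdr2 loss in Stat3Δhc liver, where 17.4% of all genes were called. Csf3r, the granulocyte colony-stimulating factor receptor of neutrophils, was 6.47, 6.05 and 6.10 in Stat3Δhc Mdr2-/- liver, against 5.45, 5.38 and 5.45 in Stat3Δhc liver. It rose 1.72-fold there (log2 change 0.78, SE 0.13, limma adjusted p = 0.00187), from a signal that lay below the array's 40th percentile in all 3 Stat3Δhc arrays. Csf3r is also 1 of 7 neutrophil markers, whose mean lay between 5.65 and 6.31 in Stat3Δhc Mdr2-/- liver and between 5.44 and 5.71 in Stat3Δhc liver, and of the 6 tested markers Csf3r alone rose there. Whether these cells had a part in the Socs3 or Osmr values was not tested.

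Downstream, a list of 31 interleukin 6 and STAT3 target genes held 26 that were tested, most of them acute phase proteins made by hepatocytes. With Stat3 deletion 9 of 26 fell on the knockout and 3 of 26 without it, and 0 rose in either. Over all genes 3.9% fell and 1.87% rose on the knockout, and 2.58% were called in either direction without it. With Mdr2 loss 8 rose and 3 fell in Stat3Δhc liver, and 11 rose and 0 fell in floxed liver, where 6.9% of all genes rose and 10.5% fell in Stat3Δhc liver and 7.12% rose and 5.65% fell in floxed liver. The list's median log2 change was -0.25 with Stat3 deletion on the knockout, -0.22 without it, 0.10 with Mdr2 loss in Stat3Δhc liver and 0.31 in floxed liver. The medians of all genes in these comparisons lay between -0.03 and 0.

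Some targets rose with Mdr2 loss in both Stat3 genotypes, as Il6st and Osmr did. Lcn2, which encodes the iron-siderophore binding lipocalin 2, had log2 signals of 11.46, 10.01 and 10.76 in Stat3Δhc Mdr2-/- liver, against 7.71, 7.88 and 8.25 in Stat3Δhc liver. It rose 6.93-fold there (log2 change 2.79, limma adjusted p = 0.000131) and 6.51-fold in floxed liver (2.7, adjusted p = 0.0002). Timp1, an inhibitor of matrix metalloproteinases, rose 3.45-fold in Stat3Δhc liver (1.79, adjusted p = 0.00107) and 3.33-fold in floxed liver (1.74, adjusted p = 0.0015).

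Saa2, an acute phase serum amyloid, was 4.21, 4.01 and 3.61 in Stat3Δhc Mdr2-/- liver, against 3.80, 3.58 and 4.35 in Stat3Δhc liver. It was 6.09, 8.31 and 8.49 in Stat3Fl/FlMdr2-/- liver, against 5.42, 5.22 and 5.89 in Stat3Fl/Fl liver. All 6 Stat3Δhc arrays and 2 of the 3 Stat3Fl/Fl arrays lay below their own 40th percentile (between 5.46 and 5.63 over the arrays), so that no change with Mdr2 loss could be measured in Stat3Δhc liver. With Mdr2 loss Saa2 rose by 2.12 in floxed liver (adjusted p = 0.0115), a call lost without array C of Stat3Fl/FlMdr2-/- liver (1.69, adjusted p = 0.0538). The difference between the Stat3 effects did not pass for Saa2 (-2.08, limma adjusted p = 0.226). With all Stat3Δhc arrays that dim, this test cannot show whether the Saa2 change depended on the Stat3 genotype. The difference passed for 1 of the 26 targets, Fgl1, a fibrinogen-like protein secreted by hepatocytes (-1.96, adjusted p = 0.038). Fgl1 fell 4.3-fold with Mdr2 loss in Stat3Δhc liver (-2.1, adjusted p = 4.18e-05) and changed by -0.15 in floxed liver. The call of the difference was lost without array A, B or C of Stat3Δhc, B or C of Stat3Fl/Fl, B of Stat3Fl/FlMdr2-/-, or B or C of Stat3Δhc Mdr2-/- liver (adjusted p of Fgl1 between 0.0514 and 0.11), and with the sex-linked covariate (-2.16, adjusted p = 0.0857). With the sex-linked covariate the changes in floxed liver were 1.63 for Lcn2 (adjusted p = 0.193), 1.07 for Timp1 (adjusted p = 0.41) and 1.73 for Saa2 (adjusted p = 0.504).

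**Figure D3:**
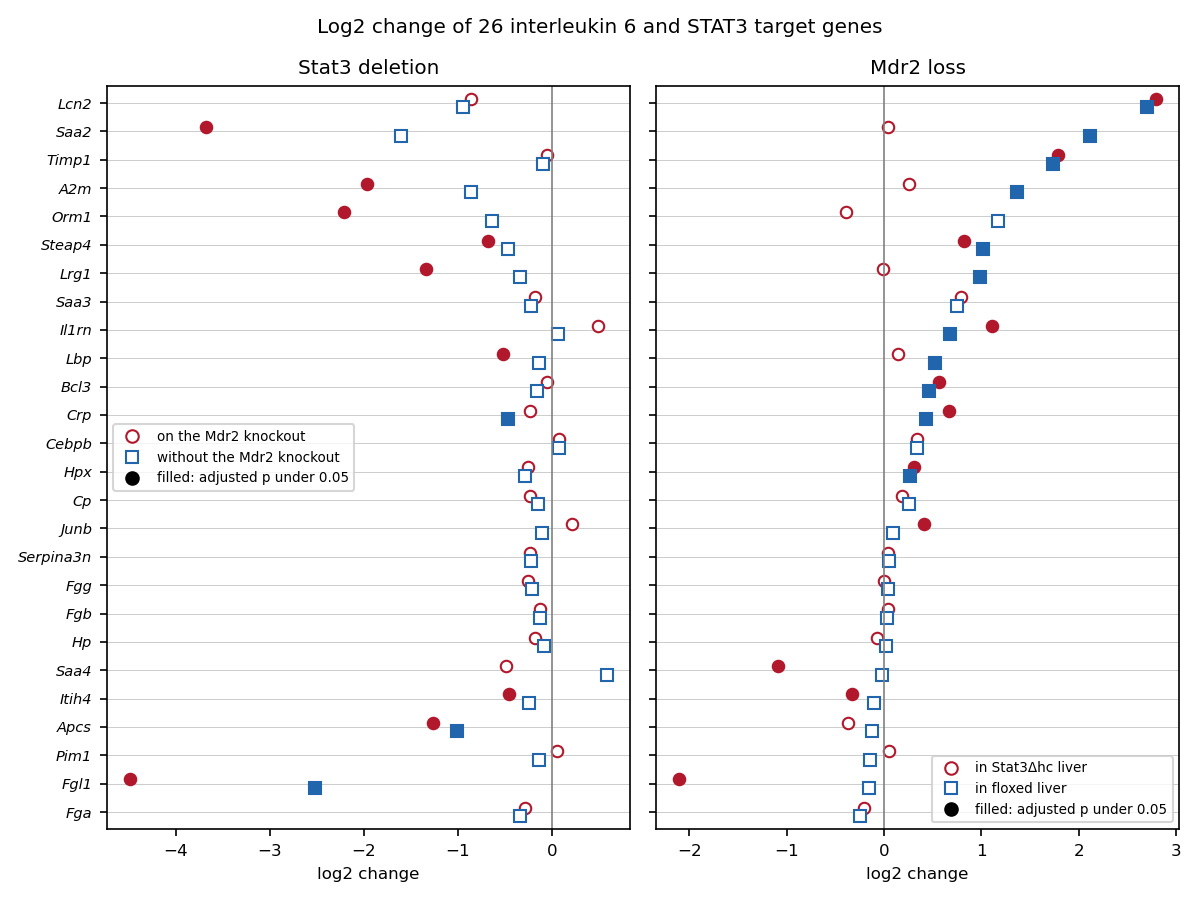
Log2 change of the 26 tested interleukin 6 and STAT3 target genes with Stat3 deletion (left: circles on the Mdr2 knockout, squares without it) and with Mdr2 loss (right: circles in Stat3Δhc liver, squares in floxed liver), sorted by the change with Mdr2 loss in floxed liver; filled symbols have an adjusted p under 0.05. Lcn2 and Timp1 rise with Mdr2 loss in both Stat3 genotypes, and Saa2 is called in floxed liver (2.12), while its arrays in Stat3Δhc liver all lie below the 40th percentile.

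The adaptors and kinases that act next to gp130, 11 tested of 13 genes, held 0 called genes in the 5 planned comparisons. The share of all genes called there lay between 0.0715% and 17.4%. In the contrast of Mdr2 loss averaged over both Stat3 genotypes, where 24.6% of all genes were called, 2 of the 11 rose. They were Rhbdf2 (0.29, adjusted p = 0.0128), which guides the sheddase ADAM17, and the kinase gene Src (0.28, adjusted p = 0.034). The Src call was lost in 9 of 12 fits that left out 1 array, all but those without array B of Stat3Δhc, B of Stat3Fl/FlMdr2-/- or B of Stat3Δhc Mdr2-/- liver, and with the replicate block or the sex-linked covariate (adjusted p up to 0.322). The Rhbdf2 call was lost with the covariate (0.15, adjusted p = 0.449). With Stat3 deletion averaged over both Mdr2 genotypes, 10.2% of all genes were called. Adam10, which encodes another sheddase of the IL-6 receptor, fell there (-0.31, adjusted p = 0.0284). Its call was lost in 8 of 12 fits that left out 1 array, those without array A or B of Stat3Δhc, B or C of Stat3Fl/Fl, B or C of Stat3Fl/FlMdr2-/-, or B or C of Stat3Δhc Mdr2-/- liver, and with median centring, the replicate block or the covariate (adjusted p up to 0.235).

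The genes whose values lay nearest to those of the called receptors over the 12 arrays were found by the root mean square difference of log2 signals, each gene centred on its own mean. For Il6st these were Nfkb2 (difference 0.062), the NF-kB subunit gene, and Tmem176b (0.069), a membrane protein gene, against a spread of 0.306 for Il6st about its mean. Nfkb2 averaged 7.76 in Stat3Δhc Mdr2-/- and 7.8 in Stat3Fl/FlMdr2-/- liver, against 7.21 in both genotypes without the knockout. For Osmr they were Apbb3 (0.146) and the actin-binding protein gene Tagln2 (0.169), with a spread of 0.467 for Osmr. For Lifr they were Masp1 (0.102), a serine protease gene of the complement lectin pathway, and Ctnnbl1 (0.117), with a spread of 0.245. Masp1 averaged 9.84 in Stat3Δhc Mdr2-/- liver, against 10.24 in Stat3Fl/FlMdr2-/- liver, and 10.02 in Stat3Δhc liver, against 10.32 in Stat3Fl/Fl liver. For Socs3 they were Mefv (0.107), the pyrin gene, and Cys1 (0.115), with a spread of 0.279. Mefv was dim, below the cut of the filter on dim genes in most arrays. It lay above that cut only in arrays A (5.73) and C (5.78) of Stat3Δhc Mdr2-/- and C (5.64) of Stat3Fl/FlMdr2-/- liver. Socs3 was highest in the same arrays (7.41, 7.6 and 7.48). In the other arrays the closeness of Mefv to Socs3 rests on dim values. All the genes named here as nearest were picked among 13977, so the closeness is a description.

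**Figure D4:**
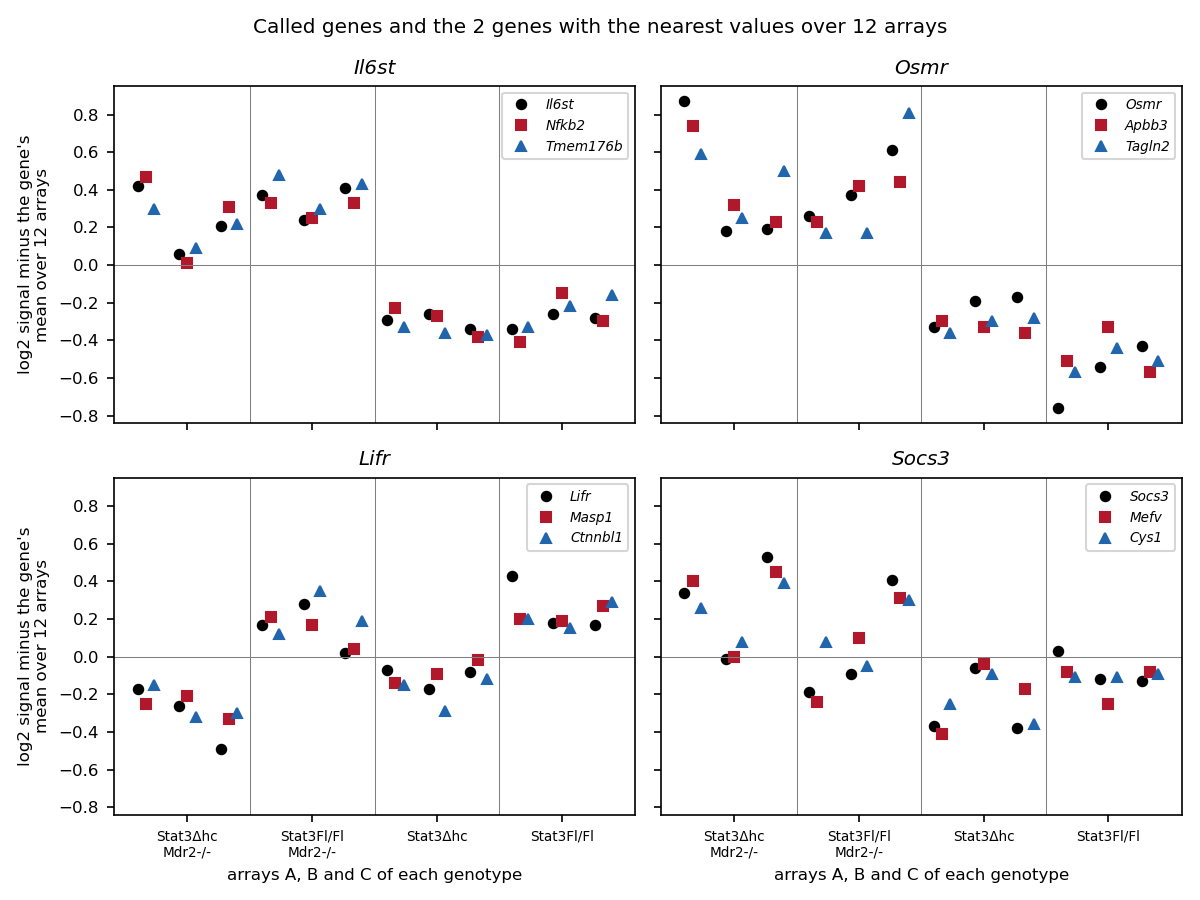
Log2 signal minus the gene's mean over 12 arrays (vertical axis) in arrays A, B and C of each genotype (horizontal axis), for Il6st, Osmr, Lifr and Socs3 (black circles) and the 2 nearest genes of each (red squares and blue triangles). Il6st, Nfkb2 and Tmem176b lie above 0 in all 6 Mdr2-/- arrays and below 0 in the other 6; Lifr and Masp1 lie below 0 in the 6 Stat3Δhc arrays and above it in the 6 floxed arrays.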

How the data were processed

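The 12 arrays were Affymetrix mouse Gene 1.0 ST arrays. The authors deposited log2 values that they had made with RMA, of unstated version, per the submitters' processing notes. These lay between 1.37 and 14.54. Arrays were grouped by title, and grouping by source name was not run.

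Of 35556 transcript clusters, 21789 name 1 gene, and a gene was read from its cluster of highest mean. A gene was tested where at least 3 arrays had it above their own 40th percentile (13977 of 19938 genes). Comparisons used limma 3.58.1 in R 4.3.3 (lmFit and eBayes, 12 arrays, 8 residual degrees of freedom), with Benjamini-Hochberg adjustment over all tested genes and a threshold of 0.05. The fit was also run on simulated data with independent noise. These lacked the group differences in sex-linked and muscle transcripts seen here, so that run is no support for the calls above. A log2 change had a median standard error of 0.11, and the number of arrays limits the precision. The 2 averaged contrasts were added after the data were seen.

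The genes and lists were chosen with earlier results of these data known. Passing genes of the pathway lists were picked from up to 4 per list and comparison, by size of change. Not all of these are described, so the named genes are not always those with the largest changes. Also named are the 2 tested genes nearest to each passing gene of the family. The main fit did not pair arrays by letter. Residuals of same-letter arrays from different genotypes correlated between -0.409 and 0.366 (median -0.058). Those of different-letter arrays correlated between -0.373 and 0.482 (median 0.012), so no pairing by letter was seen. Alternatives covered the filter, averaging clusters, 2 scalings, the variance model, weights, the arrays in the fit, a block for the letter, the Xist or Y-linked pattern as a covariate, and each array left out. Promoters are RefSeq windows of build GRCm38.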

Additional observations from a re-analysis of the deposited data

How the results depend on the processing

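Most of the family's 63 log2 changes were not called in the main fit. Of their 1359 values under 22 other settings, 1311 had the same outcome as in the main fit, called or not called. A call was lost in 24 and gained in 24, and 0 called values turned sign. With the Xist or Y-linked pattern as a covariate the family's calls were 0 for Stat3 deletion on the knockout and for Mdr2 loss in floxed liver, and 1 for each averaged contrast, and all genes gave 37, 102, 538 and 798, and 6 for the difference. With array weights, which set array A of Stat3Δhc liver at 9.01, the family gave 2 for Stat3 deletion on and without the knockout, 5 for Mdr2 loss in Stat3Δhc liver and 4 for the averaged Mdr2 loss, and all genes 2298, 2955, 567 (difference), 5830 and 3691 (averaged Stat3 deletion). Cyclic loess gave 2 and 1 family genes for Stat3 deletion on and without the knockout and 4 for the averaged Mdr2 loss. No counts of all genes are given beside these, so they cannot be read against a background share. Only the groups compared gave 0 (230 of all genes) for Stat3 deletion on the knockout and 1 (1541) for Mdr2 loss in Stat3Δhc liver. The replicate block gave 2 family genes on the knockout, and 473, 237 and 3 of all genes for Stat3 deletion on and without the knockout and their difference. For the difference, no filter gave 6 and trend with robust eBayes 23.

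Leaving out 1 array gave 0 to 1 family genes (300 to 1474 of all) for Stat3 deletion on the knockout, 0 (69 to 753) without it, 0 (0 to 64) for the difference, 1 to 3 (1153 to 2606) for Mdr2 loss in Stat3Δhc liver and 2 (1098 to 2139) in floxed liver. The averaged contrasts gave 1 to 2 (746 to 1692) for Stat3 deletion and 2 to 3 (2720 to 3339) for Mdr2 loss. Of 1580 values of the pathway genes, 171 lost their call and 0 reversed. The causes were not tested.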

Other observations

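Among 17 tested receptors of other cytokines that signal through JAKs (20 listed), 2 rose and 1 fell with Mdr2 loss in Stat3Δhc liver, and 4 rose and 0 fell in floxed liver. Over all genes 6.9% rose and 10.5% fell in Stat3Δhc liver, and 7.12% rose and 5.65% fell in floxed liver. The fall was that of Il13ra1 (-0.66, limma adjusted p = 0.00346). Ifngr2, a chain of the interferon gamma receptor, rose by 0.46 in Stat3Δhc liver (limma adjusted p = 0.00755) and by 0.39 in floxed liver (adjusted p = 0.0207). The call in floxed liver was lost without array A (0.36, adjusted p = 0.069) or C (0.35, adjusted p = 0.0838) of Stat3Fl/Fl or A (0.31, adjusted p = 0.0821) or C (0.40, adjusted p = 0.0568) of Stat3Fl/FlMdr2-/- liver, and with the sex-linked covariate (0.40, adjusted p = 0.444). Csf2rb, the shared chain of the interleukin 3, interleukin 5 and GM-CSF receptors, rose by 0.66 in Stat3Δhc liver (adjusted p = 0.0053).

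Il13ra1, a chain of the interleukin 13 receptor, had log2 signals of 8.49, 8.0 and 8.31 in Stat3Δhc Mdr2-/- liver, against 9.21, 9.25 and 9.18 in Stat3Fl/FlMdr2-/- liver. In the genotypes without the knockout it had 8.80, 8.85 and 9.13 in Stat3Δhc liver, against 9.0, 9.02 and 9.18 in Stat3Fl/Fl liver. It fell 1.93-fold with Stat3 deletion on the knockout (-0.95, adjusted p = 0.00185; -0.72 with the sex-linked covariate, adjusted p = 0.0885) and changed by -0.14 without it. The difference between these changes was -0.80 and did not pass. Besides Stat3, 4 STAT genes were tested. Over all genes 17.4% were called with Mdr2 loss in Stat3Δhc liver and 12.8% in floxed liver. Of the 4, Stat2 fell with Mdr2 loss in Stat3Δhc liver (-0.35, limma adjusted p = 0.0109), a call lost without array C of Stat3Δhc liver (-0.29, adjusted p = 0.057). Stat6 rose with Mdr2 loss in floxed liver (0.37, adjusted p = 0.0194), a call lost without array A (0.36, adjusted p = 0.0577) or C (0.34, adjusted p = 0.0755) of Stat3Fl/Fl or A (0.36, adjusted p = 0.059) or C (0.31, adjusted p = 0.0859) of Stat3Fl/FlMdr2-/- liver, and with the sex-linked covariate (0.18, adjusted p = 0.709).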
